A study of Mus musculus with 61 samples.

Results

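The stretch described here is the first 25 kb of a map of the mouse immunoglobulin heavy chain locus (Igh), at the end that lies beyond the enhancer hs4. The map was divided into bins of 1 kb, and a contact was counted for the stretch when at least 1 of its ends lay in the first 25 bins. These contacts could fall in 5550 of the 27495 bin pairs, or 20.2% of them. The pairs were split by the place of the other end into 6 regions: within the stretch, 25 to 60 kb, 60 to 130 kb, 130 to 180 kb, 180 kb to the Emu region, and the Emu region, which is the last 20 kb.

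The data were 61 Tri-C libraries of primary mouse B cells. Tri-C captures DNA fragments ligated to a chosen viewpoint in crosslinked chromatin and counts reads that join the viewpoint to a pair of further fragments, so each value stands for a contact of 2 bins seen together with the viewpoint. Viewpoints were Emu, hs4, IgG1, IgG2a and IgG3, named as in the labels, and all labels name LPS and IL4 in the culture medium. The hs4 viewpoint lay 7 kb from the last bin of the stretch, that of IgG2a about 60 kb, that of IgG1 about 120 kb, that of IgG3 about 140 kb and that of Emu about 200 kb.

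The activation set used cells titled B18 AIDKO at 0, 48 and 72 h. The 0 h cells were labelled WT, 2 libraries were made for each probe at 0 h and 3 at each later time, and 1 of the 0 h libraries was titled as replicates 1 and 3 together. For IgG1 each time held libraries of clone 1 and of clone 2, which were averaged by replicate number to 2, 3 and 3 samples. The Spt5 set had cells activated for 62 h and treated with 4HT for the last 32 h to deplete Spt5, a factor of transcription elongation, beside controls labelled WT with no time given. It held 4 control and 5 depleted libraries for IgG1 and 2 and 3 for IgG2a. The TPL set, seen from Emu in B18 AIDKO cells activated for 72 h, had 3 libraries each without TPL, with 1 h and with 3 h of TPL. The LPS set, seen from IgG3 in B18 AIDKO cells, had 3 libraries of day 0, labelled WT, and 3 of day 3, labelled as activated for 72 h. Whether clones and replicates came from separate cultures or animals is not stated, so p-values measure only the spread between these samples, which may be technical.

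As background, the 3′ regulatory region of Igh is a group of enhancers downstream of the last constant gene, and hs4 is its outermost enhancer. The DNA beyond it is known for further DNase hypersensitive sites with many CTCF sites, which are regarded as the downstream border of the locus. In activated B cells the 3′ enhancers, the enhancer Emu at the other end of the constant genes and the promoter of the constant gene to be used come together in class switch recombination, the replacement of one constant gene by another. The maps carry no genome coordinates, so whether the 25 bins hold those CTCF sites is not shown by them, and no sequence is printed.

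Every map was scaled by the authors to a total of 300000, and values are given as percent of that total. The number of contacts behind a map was not recovered here, and the number of bin pairs with any signal stands for depth. It ranged from 405 to 5073 per map with a median of 2108, and in the stretch from 24 to 482. The 9 libraries of the TPL set were the sparsest, with 24 to 44 filled pairs in the stretch. No pair of maps held identical values. A percentage of a fixed total can move because other regions moved, and the values below are shares of each map.

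The stretch took 2.06% to 6.09% of a map, with a median of 3.84% over the 61 libraries, for its 20.2% of the bin pairs. The mean was highest from hs4 at 48 h, at 5.42% ± 0.41 (SD, n = 3), and at 72 h, at 5.17% ± 0.18 (SD, n = 3). It was lowest in the Spt5 set, where IgG1 libraries of depleted cells averaged 2.16% ± 0.12 (SD, n = 5). The groups in between overlapped: Emu samples of the activation set covered 2.86% to 5.31%, and IgG3 samples 3.25% to 4.60%.

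**Figure D1:**
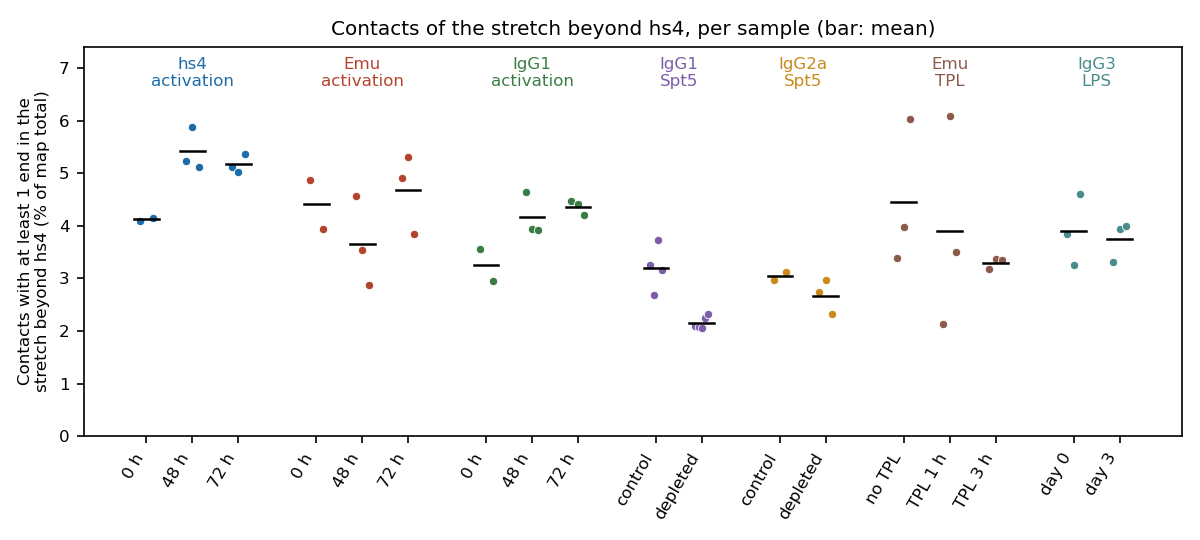
Each point is 1 sample and gives the contacts of the stretch beyond hs4 as percent of its map (vertical axis), by probe and condition (horizontal axis), with bars at the group means. The samples seen from hs4 at 48 and 72 h sit between 5.03% and 5.89%, above both 0 h samples at 4.10% and 4.16%, and the 5 Spt5-depleted samples seen from IgG1 sit between 2.06% and 2.32%, below all 4 controls.

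Inside the stretch, signal in the activation set was concentrated at the side facing hs4. Bins 24 and 25 had the highest mean shares from Emu, hs4 and IgG1 in the activation set: from Emu the last bin held 14.8% of all contact ends of the stretch, from hs4 12.2% and from IgG1 10.2%. The third bin was bin 20, 21 or 22. Other sets differed: from IgG2a bin 8 had the highest mean share, and in the TPL set bin 10. The first 4 bins had signal in 6 of 61 libraries, and bins 1 and 2 in 0. Per bin, the filled remainder of the stretch (bins 5 to 25) held 0.162% of contact ends from hs4, 0.155% from Emu and 0.137% from IgG1, beside 2.29%, 0.880% and 0.508% in the next 10 bins. The drop from the next 10 bins to the stretch was thus present from all probes, and smallest from IgG2a, with 0.118% in the stretch and 0.206% beside it.

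**Figure D2:**
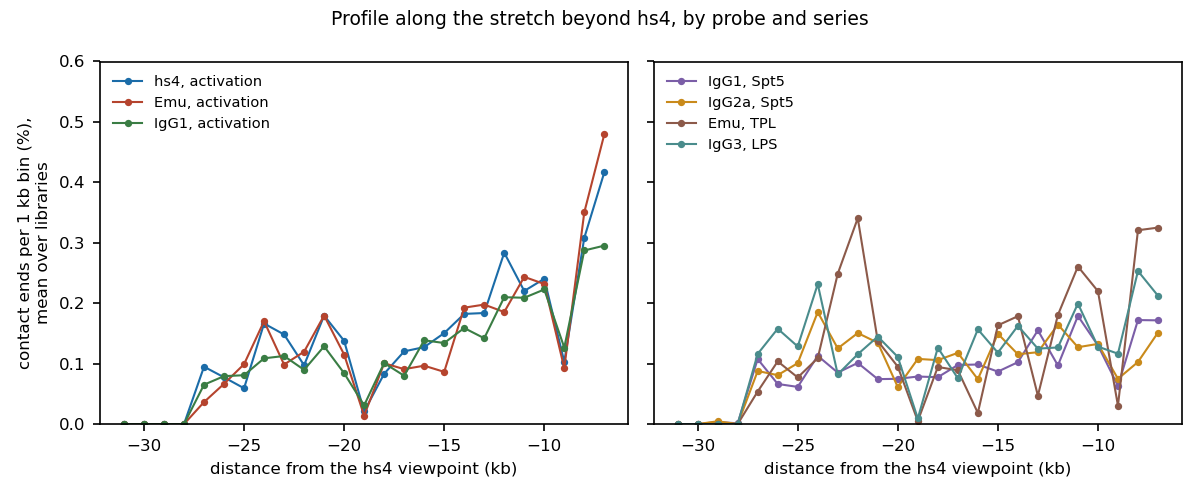
The mean share of contact ends (vertical axis, percent) in each 1 kb bin of the stretch (horizontal axis, kb from the hs4 viewpoint) is drawn as a mean over the libraries of each set and probe, with the activation set on the left and the other sets on the right. The activation lines rise toward the last bins, the side facing hs4, and the first 4 bins are near 0 in all sets.

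Of the contacts with both ends inside the stretch, a median of 63.9% over the 61 libraries joined a bin with itself and a median of 3.79% joined bins at least 5 kb apart. The share of the stretch's contacts that left it ranged from 7.12% to 70.6%, with a median of 46.9%. From hs4 the group means of this share were 60.9% to 66.8%. Seen from IgG1 in the Spt5 set they were 29.2% in controls and 36.2% in depleted cells.

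Across probes of the activation set, mean contacts of the stretch with a viewpoint's region were highest from that probe. Tri-C counts contacts seen together with the viewpoint, so a higher share near it is built into the capture. All contacts with an end in 25 to 60 kb also followed the probe. Their median share of the map over the libraries was 48.2% from hs4, 21.6% from Emu and 14.2% from IgG1. The tests below therefore cannot separate a partner preference of the stretch from the capture. The share of the map in contacts with the 25 to 60 kb region, which holds the hs4 viewpoint, was 1.38% ± 0.11 from hs4 (SD, n = 8 samples over the 3 times), 0.451% ± 0.17 from Emu and 0.361% ± 0.077 from IgG1. With time held as a stratum, hs4 was higher by 0.938 percentage points than Emu and by 1.02 than IgG1, each with an adjusted p of 0.0035 in an exact permutation test (two-sided, n = 8 against 8, raw p 8.3e-04, the smallest this design allows, adjusted over 21 tests of 3 pairs of probes). Contacts with 130 to 180 kb, the region of the IgG1 viewpoint, were 0.879% ± 0.16 from IgG1 against 0.353% ± 0.18 from hs4 and 0.320% ± 0.12 from Emu, both with an adjusted p of 0.0035 (exact permutation test). Contacts with the Emu region were 0.665% ± 0.38 from Emu, 0.346% ± 0.14 from IgG1 and 0.311% ± 0.16 from hs4. The excess of Emu over IgG1 there was 0.308 percentage points (adjusted p = 0.039, exact permutation test). With pairs near the viewpoints left out it was 0.056 (adjusted p = 0.56, range over the alternatives 0.0029 to 0.56). That setting dropped all pairs with an end within 10 kb of the hs4, Emu or IgG1 viewpoint. It thus took out the last bins of the stretch, near hs4, and most of the Emu region. The call was also lost when any of 12 samples was left out. The differences at 25 to 60 kb and at 130 to 180 kb still passed without pairs near the viewpoints, as shares of the remaining map, but were smaller. At 25 to 60 kb hs4 then exceeded Emu by 0.287 (adjusted p = 0.012, exact permutation test) and IgG1 by 0.347 (adjusted p = 0.0044). At 130 to 180 kb hs4 lay below IgG1 by a difference of -0.211 (adjusted p = 0.012) and Emu by one of -0.395 (adjusted p = 0.0044). Whether the enrichment by the capture reaches beyond the pairs left out was not tested.

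The total of the stretch was higher from hs4 than from IgG1 by 0.982 percentage points (adjusted p = 0.0035, exact permutation test). With filled bin pairs counted in place of signal it was 0.239, and the call was lost (adjusted p = 0.39). From hs4 against Emu it differed by 0.654 (adjusted p = 0.14), and the sign turned without pairs near the viewpoints, to -0.83. That value leaves out the last bins of the stretch. The region between 60 and 130 kb held 0.928% ± 0.36 of the map with the stretch from hs4, 0.379% ± 0.12 from IgG1 and 0.351% ± 0.29 from Emu, and hs4 was higher than both (adjusted p = 0.0088 against IgG1 and 0.039 against Emu, exact permutation tests). The second of these was lost without pairs near the viewpoints (adjusted p = 0.13, range over the alternatives 0.013 to 0.23) and when any of 9 of the 16 samples was left out. Contacts inside the stretch were higher from Emu than from IgG1 by 0.554 percentage points (adjusted p = 0.039, exact permutation test), a call lost when any of 10 samples was left out and without pairs under 5 kb apart (0.32, adjusted p = 0.12).

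Seen from IgG1, activation changed the partners of the stretch in both directions. Contacts with the Emu region and contacts inside the stretch rose at 48 and 72 h, contacts with the 60 to 130 kb region fell, and those with 130 to 180 kb, where the probe sits, gave no call. Of the 7 measures of the stretch (its total and its 6 partner regions), 3 rose and 1 fell at 48 h and 5 rose and 1 fell at 72 h (limma on log2 values, Benjamini-Hochberg adjusted p under 0.05). The background was as high: 70.4% of the 27 region measures of the map were called at 48 h and 70.4% at 72 h. At each time the groups did not overlap in 6 of the 7, and in 22 of all 27. The median log2 difference of the 7 was 0.36 at 48 h and 0.56 at 72 h, against 0.29 and 0.31 over all 27.

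Contacts of the stretch with the Emu region made the clearest rise. At 0 h the 2 IgG1 samples held 0.157% and 0.0798% of the map there. At 48 h the samples held 0.427%, 0.421% and 0.366%. At 72 h they held 0.423%, 0.452% and 0.438%. All 6 activated samples lay above both 0 h samples. The log2 difference was 1.70 (SE 0.22) at 48 h, with a limma adjusted p of 2.7e-04, and 1.81 at 72 h, with 1.6e-04, higher in 3 of 3 samples each time. It was 1.44 and 1.45 with median-of-ratios scaling and 1.25 and 1.24 when values were taken relative to the contacts of the next 35 kb. The Emu region as a whole went from 7.49% of the map at 0 h to 20.98% and 23.41% in the same samples, a total chosen for mention after its values were seen.

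Inside the stretch the IgG1 samples held 1.38% and 1.16% at 0 h. They held 1.91%, 2.02% and 1.90% at 48 h and 2.03%, 1.79% and 1.92% at 72 h, again with no overlap. The log2 difference was 0.61 (SE 0.094, limma adjusted p = 5.9e-04) at 48 h and 0.59 (adjusted p = 7.5e-04) at 72 h. Both calls depended on the scale. Relative to the next 35 kb the values were 0.10 (adjusted p = 0.36, range over the alternatives 1.3e-04 to 0.69) and -0.04 (adjusted p = 0.78, range 1.9e-04 to 0.78). With median-of-ratios scaling they were 0.31, which still passed, and 0.19, which did not (adjusted p = 0.14). Without pairs under 5 kb apart, which leaves 2.06% to 16.5% of the signal inside the stretch, they were 0.14 (adjusted p = 0.69) and 0.88 (adjusted p = 0.047).

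Contacts with the 60 to 130 kb region, which holds the IgG2a viewpoint, fell from IgG1. The 0 h samples held 0.554% and 0.566%. The 48 h samples held 0.388%, 0.239% and 0.324%, and those of 72 h 0.326%, 0.386% and 0.252%. All activated samples lay below both 0 h samples, with log2 differences of -0.82 (SE 0.22, limma adjusted p = 0.013) and -0.79 (adjusted p = 0.013). The differences were -1.31 and -1.40 relative to the next 35 kb. Both calls were lost without 0 h replicate 2 (-0.80 and -0.78, adjusted p = 0.058 and 0.070), and counting filled pairs in place of signal gave -0.14 and -0.19 (adjusted p = 0.41 and 0.30). They were lost too with a stretch of 22 bins (adjusted p = 0.084 and 0.15), at 48 h within clone 2 (-0.64, adjusted p = 0.19) and without pairs under 5 kb apart (-0.42, adjusted p = 0.073), and at 72 h within clone 1 (-0.61, adjusted p = 0.056). The 60 to 130 kb region as a whole went from 41.79% to 23.01% and 20.73% of the map, a total chosen for mention after its values were seen.

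With the neighbouring 25 to 60 kb, the IgG1 samples went from 0.295% and 0.268% at 0 h to 0.400%, 0.329% and 0.319% at 48 h and to 0.369%, 0.511% and 0.394% at 72 h. The 72 h difference passed (log2 0.56, limma adjusted p = 0.013) and that of 48 h did not (0.29, adjusted p = 0.12). Contacts with 180 kb to the Emu region were 0.178% and 0.195% at 0 h and 0.354%, 0.354% and 0.238% at 72 h (log2 0.69, limma adjusted p = 0.041), and this call was lost in 9 alternatives, 4 of which left out 1 sample. Both 72 h calls ended with median-of-ratios scaling, at 0.18 and 0.32, and relative to the next 35 kb, at -0.05 and 0.10. That of 25 to 60 kb was also lost without 0 h replicate 2 (0.49, adjusted p = 0.083), with 22 bins (0.35) and within clone 1 (0.52). With 130 to 180 kb the log2 differences were 0.02 and 0.21, and the groups overlapped.

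The total of the stretch from IgG1 rose with no overlap of the groups. It was 3.56% and 2.94% at 0 h, then 4.63%, 3.94% and 3.91% at 48 h and 4.463%, 4.416% and 4.198% at 72 h. The log2 difference was 0.36 (SE 0.11, limma adjusted p = 0.021) at 48 h and 0.43 (adjusted p = 0.011) at 72 h. The rise depended on the scale: it was 0.06 and 0.03 with median-of-ratios scaling, which moved the median of all 27 measures by -0.29 and -0.40, and -0.15 and -0.20 relative to the next 35 kb. It was also lost without 0 h replicate 2 (0.22 and 0.29, adjusted p = 0.15 and 0.083) and within clone 2 (0.22 and 0.24), while within clone 1 it was 0.50 and 0.62.

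From Emu the change of the stretch lay in 1 partner region. Contacts with 60 to 130 kb fell, and the other 6 measures did not pass at 48 or 72 h. The samples held 0.869% and 0.763% there at 0 h. They held 0.260%, 0.206% and 0.174% at 48 h and 0.263%, 0.135% and 0.138% at 72 h. All 6 activated samples lay below both 0 h samples. The log2 difference was -1.87 (SE 0.30, limma adjusted p = 0.0059) and -2.15 (adjusted p = 0.0038), and it was -1.39 and -1.92 with median-of-ratios scaling and -0.86 and -1.26 with filled pairs counted. Over the map 33.3% of the 27 measures were called at 48 h and 33.3% at 72 h, so 1 of 7 is below the background. Groups without overlap were found in 2 and 3 of the 7, beside 18 and 17 of all 27. The median log2 difference of the 7 was -0.28 and 0.08, against -0.64 and -0.02 over all.

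These Emu values rest on few bin pairs: 12 to 15 were filled at 0 h, 9 to 12 at 48 h and 5 to 8 at 72 h. Without 0 h replicate 1 the 48 h difference was -1.78 with an adjusted p of 0.064 in limma. The whole 60 to 130 kb region went from 28.8% of the map at 0 h to 14.2% and 18.2%, a total chosen for mention after its values were seen.

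Contacts of the stretch with the Emu region, where this probe sits, were 0.187% and 0.478% at 0 h and 0.896%, 1.37% and 0.492% at 72 h. The highest 0 h sample and the lowest 72 h sample lay side by side, and the difference did not pass (log2 1.44, SE 0.61, limma adjusted p = 0.10). The total was 4.87% and 3.94% at 0 h, 4.58%, 3.55% and 2.86% at 48 h and 4.91%, 5.31% and 3.84% at 72 h. The groups overlapped, and the sign of the total's difference turned under several settings. With median-of-ratios scaling, which moved the median of all measures by 0.49 and 0.23, contacts with 25 to 60 kb also passed, at 1.03 and 1.08.

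**Figure D3:**
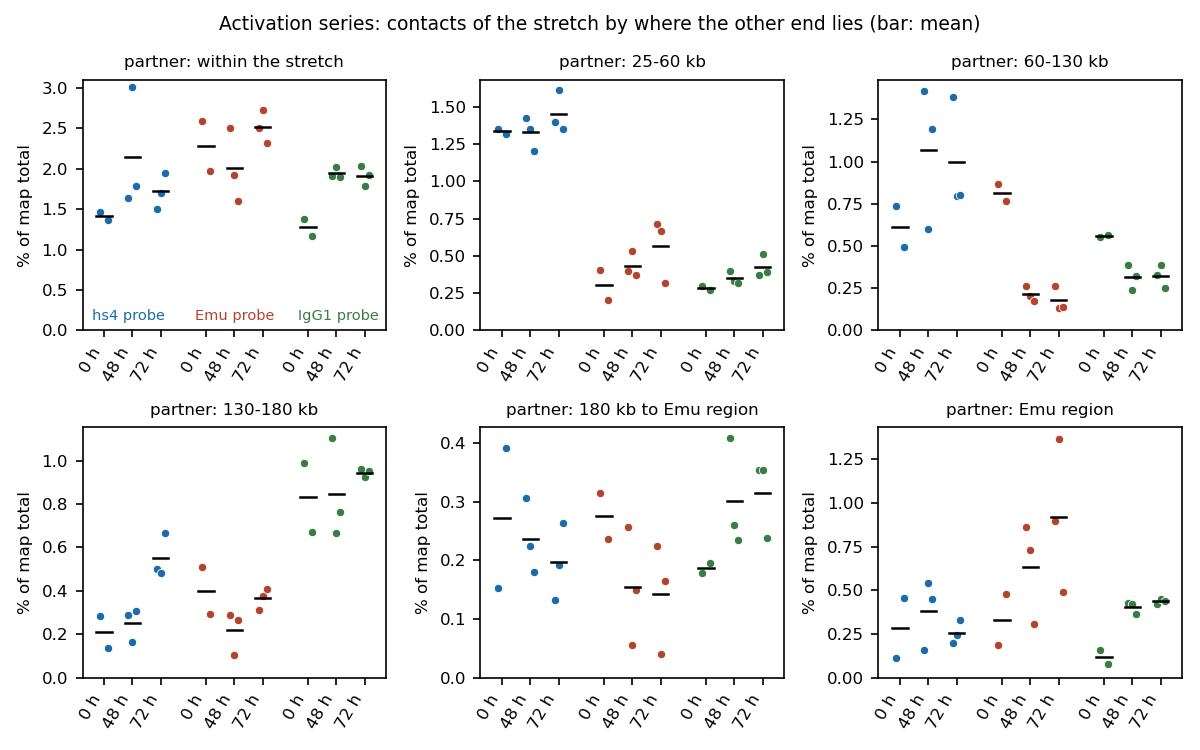
Each panel shows, for 1 partner region, the contacts of the stretch as percent of the map (vertical axis) at 0, 48 and 72 h (horizontal axis), with 1 point a sample for the probes Emu, hs4 and IgG1. In the 60 to 130 kb panel the activated Emu samples lie at 0.135% to 0.263%, below their 0 h samples at 0.763% and 0.869%, and in the Emu region panel all activated IgG1 samples lie above the 0 h ones.

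From hs4, the nearest viewpoint, the total was 4.10% and 4.16% at 0 h. It was 5.24%, 5.89% and 5.12% at 48 h and 5.12%, 5.03% and 5.37% at 72 h, so the groups did not overlap. The log2 difference was 0.39 (SE 0.11) and 0.32, with limma adjusted p of 0.069 and 0.077, and it was not called. It did pass in 7 other settings at 48 h, among them the one without pairs near the viewpoint (0.83, adjusted p = 0.012, range over the alternatives 0.0014 to 0.22). In that setting the last bins of the stretch, within 10 kb of the hs4 viewpoint, were left out too. At 48 h 0 of the 7 measures passed in limma, with 1 at an unadjusted p under 0.05, where 7.41% of all 27 were called. At 72 h 1 rose, where 14.8% were called. Groups without overlap were found in 2 of the 7 at 48 h and 4 at 72 h, beside 11 and 16 of all 27. The median log2 difference of the 7 was 0.39 and 0.27, against -0.09 and 0.12 over all 27.

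The measure that rose at 72 h was contacts with 130 to 180 kb, the region of the IgG1 and IgG3 viewpoints. It was 0.284% and 0.134% at 0 h, 0.288%, 0.164% and 0.308% at 48 h, and 0.500%, 0.483% and 0.666% at 72 h. The 72 h samples lay above all others. The log2 difference from 0 h was 1.40 (SE 0.36, limma adjusted p = 0.042). The call was lost in 6 of the 8 fits that left out 1 sample (adjusted p of 0.056 to 0.18). Without 0 h replicate 2 the value was 0.90. It was also lost without pairs near the viewpoint (1.39, adjusted p = 0.080), and was 0.93 with filled pairs counted.

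Contacts with 60 to 130 kb from hs4 were 0.7364% and 0.49299% at 0 h, 1.42%, 0.599% and 1.19% at 48 h, and 1.38%, 0.798% and 0.803% at 72 h. Their log2 differences, 0.72 and 0.66, did not pass (limma adjusted p = 0.29 and 0.30). Contacts with 25 to 60 kb stayed between 1.21% and 1.61% in all 8 samples, with log2 differences of -0.01 (SE 0.13) and 0.12.

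The changes seen from the 3 probes were compared directly in joint fits, and they differed most often in the 60 to 130 kb region. The change from hs4 exceeded that from Emu by 2.59 log2 units at 48 h (SE 0.54, limma adjusted p = 0.0040) and by 2.81 at 72 h (adjusted p = 0.0058). The change from IgG1 exceeded that from Emu by 1.05 and 1.36 (adjusted p = 0.042 and 0.015), and was below that from hs4 by 1.54 and 1.45 (adjusted p = 0.022 and 0.027). In contacts inside the stretch IgG1 exceeded Emu by 0.80 at 48 h (adjusted p = 0.021). In contacts with 130 to 180 kb IgG1 was below hs4 by 1.19 at 72 h (adjusted p = 0.037). Of 49 such differences of the stretch's measures, these 8 and 1 in the Spt5 set passed. Many measures without an end in the stretch also passed in these fits, and their share was not worked out. Without that share the count is not read as a result about the stretch. The total of the 60 to 130 kb region, chosen for mention after its values were seen, differed too. At 48 and 72 h hs4 minus Emu gave 1.13 and 0.83 (limma adjusted p = 0.0040 and 0.034). IgG1 minus hs4 gave -0.96 and -1.18 (adjusted p = 2.9e-05 and 6.3e-06), and IgG1 minus Emu did not pass.

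**Figure D4:**
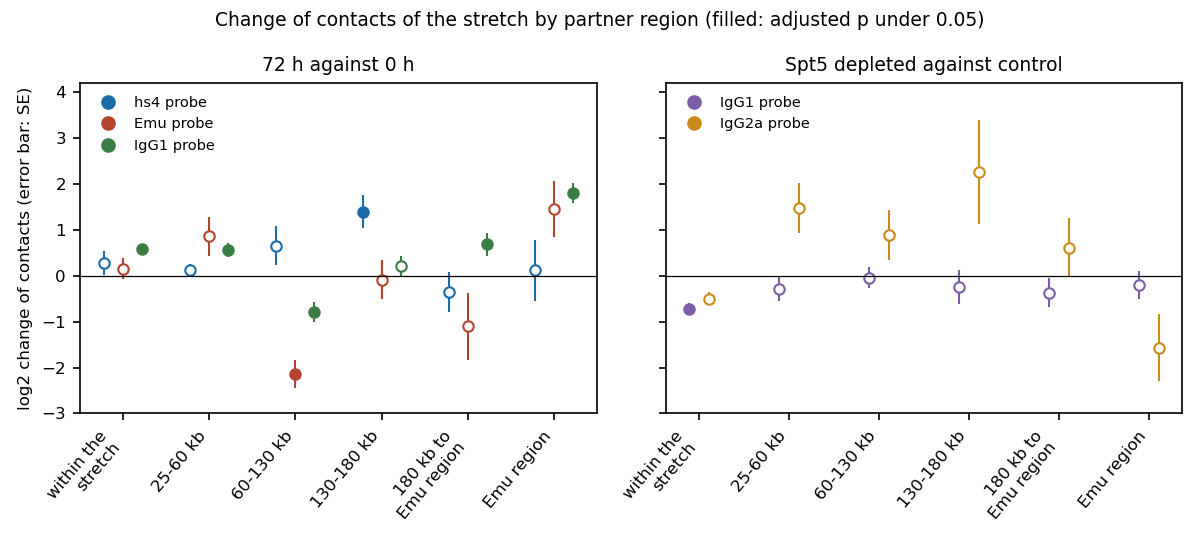
Points give the log2 difference from 0 h (activation set) or from controls (Spt5 set) of the stretch's contacts with each partner region (horizontal axis), by probe, with bars of 1 SE. In the 60 to 130 kb region the Emu and IgG1 points lie below 0 and the hs4 points above it.

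Between 48 and 72 h none of the 7 measures passed from any probe in limma. At an unadjusted p under 0.05 there was 1 from hs4, 0 from Emu and 0 from IgG1. Of all 27 measures 0% were called from hs4, 0% from Emu and 3.7% from IgG1. The 1 from hs4 was contacts with 130 to 180 kb (log2 1.10, SE 0.33, adjusted p = 0.16), with no overlap between the times. Over all 27 measures from hs4, these times did not overlap in 9.

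Blocks of 5 kb along the stretch showed where contact ends moved. From IgG1 the 2 blocks facing hs4 rose: the last block (20 to 25 kb) went from 0.766% ± 0.075 of contact ends (SD, n = 2) to 1.21% ± 0.083 and 1.33% ± 0.063 (SD, n = 3 each), a log2 difference of 0.65 (SE 0.096, limma adjusted p = 2.2e-04) and 0.78 (adjusted p = 5.3e-05). The block before it (15 to 20 kb) rose by 0.54 and 0.49 (adjusted p = 0.0069 and 0.011). Its calls were lost without pairs of a bin with itself (0.40 and 0.38, adjusted p = 0.077 and 0.089) and within clone 2 (0.45 and 0.48, adjusted p = 0.21 and 0.16). They were also lost at 48 h without pairs under 5 kb apart (0.47, adjusted p = 0.085) and at 72 h without 0 h replicate 1 (0.43, adjusted p = 0.068). At 72 h the first block fell from 0.108% to 0.0475% (log2 -1.01, adjusted p = 0.021), but this call was lost in 9 alternatives, and counting filled pairs gave 0.0061. Thus 2 of 5 blocks were called at 48 h and 3 at 72 h, where 66% and 68.1% of the 47 blocks of the map were called.

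From hs4 the block of 15 to 20 kb rose from 0.490% ± 0.042 (SD, n = 2) to 1.04% ± 0.12 at 48 h and 1.11% ± 0.044 at 72 h (SD, n = 3 each), with log2 differences of 1.05 (SE 0.16, limma adjusted p = 0.0020) and 1.15 (adjusted p = 1.0e-03) and no overlap. With filled pairs counted they were 0.61, which passed (adjusted p = 0.038), and 0.47, which did not (adjusted p = 0.068). The first block rose from 0.0165% to 0.142% and 0.1005% (2.34 and 1.98, adjusted p = 0.0097 and 0.023), a level close to empty at 0 h. Both of its calls were lost without 0 h replicate 1 (1.56 and 1.19), without pairs under 5 kb apart (2.39 and 1.19) and without pairs near the viewpoint (2.29 and 2.28). The last block, nearest to hs4, was 1.52% at 0 h and 1.25% and 1.18% later, and this difference did not pass (-0.28 and -0.36). So 2 of 5 blocks were called at each time, where 34% and 31.9% of the 47 were. Groups without overlap were found in 4 of the 5 at each time, beside 21 and 26 of the 47.

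From Emu 0 of 5 blocks passed in limma at 48 h (0 at an unadjusted p under 0.05), where 21.3% of the 47 were called, and 0 at 72 h (0 unadjusted), where 8.51% were. Between 48 and 72 h no block of the stretch was called from the 3 probes in limma (1, 1 and 0 at an unadjusted p under 0.05 from hs4, Emu and IgG1), where 0%, 0% and 2.13% of the 47 were.

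Depletion of Spt5, seen from IgG1, went with a smaller share of the stretch. The control libraries held 3.25% and 2.67% for clone 1 and 3.73% and 3.17% for clone 2. The depleted libraries held 2.09% and 2.08% for clone 1 and 2.06%, 2.24% and 2.32% for clone 2. All 5 lay below all 4, and the log2 difference was -0.57 (SE 0.095, limma with clone as a term, adjusted p = 0.0032). Clone 1 went from a mean of 2.96% to 2.09% and clone 2 from 3.45% to 2.21%. Scaled by median of ratios it was -0.65, and relative to the next 35 kb -0.51.

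The partner region that passed was the stretch itself. There the controls held 2.12%, 1.79%, 2.57% and 2.60%, and the depleted libraries 1.54%, 1.22%, 1.25%, 1.48% and 1.41%, with no overlap (log2 -0.72, SE 0.12, limma adjusted p = 0.0032). Pairs at least 5 kb apart held only 0.760% to 5.62% of the signal inside the stretch in these libraries. Without pairs under 5 kb apart the difference was -0.03 (limma adjusted p = 0.98), a value that rests on this little signal. The call was also lost without pairs of a bin with itself (-0.60, adjusted p = 0.076, range over the alternatives 0.0013 to 0.98) and with filled pairs counted (-0.45, adjusted p = 0.14). The contacts that left the stretch gave no call with any region, with log2 differences of -0.04 to -0.37 and overlapping groups. With the Emu region the controls held 0.0441% to 0.135% and the depleted libraries 0.0447% to 0.0925%. With 60 to 130 kb they held 0.113% to 0.201% and 0.113% to 0.227%.

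Of the 7 measures 2 fell and 0 rose, where 29.6% of the 27 were called. Groups without overlap were found in 2 of the 7, beside 6 of the 27. The median of the 7 was -0.28, against -0.04 over all. Of the 5 blocks 3 fell, where 48.9% of the 47 were called: those of 10 to 15 kb (-0.61, limma adjusted p = 0.016), 15 to 20 kb (-0.64, adjusted p = 0.0024) and 20 to 25 kb (-0.95, SE 0.18, adjusted p = 0.0014). The call at 10 to 15 kb was lost without pairs of a bin with itself (-0.22, adjusted p = 0.33) and without control clone 2 replicate 1 or depleted clone 1 replicate 4 (adjusted p = 0.0502 and 0.054). That at 15 to 20 kb was lost without pairs under 5 kb apart (-0.35, adjusted p = 0.30) and with filled pairs counted (-0.31, adjusted p = 0.077). In the last block the share of contact ends went from 0.986% ± 0.22 (SD, n = 4) to 0.500% ± 0.079 (SD, n = 5). Depleted cells were activated for 62 h, and the labels give no time for the controls, so depletion and time in culture cannot be told apart here.

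Seen from IgG2a the 60 to 130 kb region, which holds the viewpoint, took 42.3% to 66.3% of the contacts that left the stretch in the 5 libraries. The total was 2.97% and 3.12% in controls and 2.73%, 2.98% and 2.31% in depleted cells (log2 -0.19, SE 0.15, limma adjusted p = 0.32), and the groups overlapped. Inside the stretch the controls held 2.29% and 2.90% and the depleted libraries 1.85%, 1.85% and 1.74%. These did not overlap, and the difference did not pass (-0.50, SE 0.14, adjusted p = 0.059). With median-of-ratios scaling, which moved the median of all measures by -0.78, it was -1.22 (adjusted p = 0.048), and the total was -0.91 (adjusted p = 0.050).

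Contacts of the stretch with 60 to 130 kb were 0.431% and 0.131% in IgG2a controls and 0.537%, 0.476% and 0.378% in depleted libraries (log2 0.89, SE 0.54, limma adjusted p = 0.25). Those with 130 to 180 kb were 0.0068% and 0.028%, then 0.217%, 0.372% and 0.0238% (2.25, SE 1.13, adjusted p = 0.18). The groups overlapped in both regions. Contacts with 25 to 60 kb were 0.0616% and 0.0148% in IgG2a controls and 0.0858%, 0.189% and 0.108% in depleted libraries (log2 1.47, SE 0.54, limma adjusted p = 0.12). Contacts with the Emu region were 0.142% and 0.0438%, 1 filled pair in each control, and 0.0215%, 0.0406% and 0% in depleted libraries. Of the 7 measures 0 passed in limma, with 1 at an unadjusted p under 0.05, where 33.3% of the 27 were called. Groups without overlap were found in 3 of the 7, beside 17 of the 27. The median of the 7 was 0.61, against 0.59 over all. Of the 5 blocks 0 passed, with 1 at an unadjusted p under 0.05, where 0% of the 47 did. The changes from IgG1 and IgG2a were compared directly, and they differed in contacts with 25 to 60 kb, where IgG1 was lower by 1.76 log2 units (SE 0.55, limma adjusted p = 0.025). The IgG2a controls had only 1 to 4 filled pairs there, and neither probe gave a call alone. Measures without an end in the stretch passed in this fit too.

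In the TPL set the samples varied more among themselves than between groups. The total was 3.38%, 3.97% and 6.02% without TPL, 2.12%, 6.09% and 3.50% after 1 h, and 3.18%, 3.37% and 3.34% after 3 h. All values after 3 h lay below those without TPL, yet the difference did not pass (log2 -0.39, SE 0.39, limma adjusted p = 0.58). Inside the stretch the samples held 2.25%, 2.86% and 4.09% without TPL, 0.768%, 3.70% and 1.94% after 1 h and 1.63%, 1.43% and 2.15% after 3 h (-0.79 for 3 h, SE 0.54, adjusted p = 0.49). In 3 of the 9 libraries contacts with 60 to 130 kb were listed at 0.

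None of the 7 measures passed in any of the 3 comparisons of the TPL set in limma, and 0 had an unadjusted p under 0.05, where 0% (1 h), 3.7% (3 h) and 0% (3 h against 1 h) of the 27 were called. Of the 5 blocks 0 passed, with 0 at an unadjusted p under 0.05 in each, where 8.51%, 0% and 0% of the 47 did. The medians of the 7 were -0.28, -0.10 and -0.05, against -0.05, -0.03 and 0.15 over all. Between 3 h and no TPL the groups did not overlap in 2 of the 7, beside 9 of the 27. At 24 to 44 filled pairs in the stretch, the difference of 0.39 log2 units in the total after 3 h equalled its SE and could not be told from the spread between samples. With filled pairs counted in place of signal, the total passed at -0.65 after 1 h (adjusted p = 0.0031) and at -0.93 after 3 h (adjusted p = 5.7e-04). That measure is a share of the filled pairs of the map. These were 405 to 568 without TPL, 534 to 960 after 1 h and 800 to 1170 after 3 h. In the stretch 26 to 41, 24 to 44 and 27 to 43 pairs were filled. The part that depth has in this fall was not tested.

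From IgG3 the total was 3.85%, 3.25% and 4.60% at day 0 and 3.32%, 3.95% and 4.00% at day 3 (log2 -0.04, SE 0.16, limma adjusted p = 0.85), with the groups overlapping. Contacts with 180 kb to the Emu region were 0.248%, 0.228% and 0.155% at day 0 and 0.295%, 0.314% and 0.915% at day 3. These did not overlap, but the difference of 1.04 (SE 0.48) did not pass (adjusted p = 0.37). Contacts with the Emu region were 0.411%, 0.0613% and 0.0430%, then 0.293%, 0.255% and 0.199% (1.06, SE 0.79, adjusted p = 0.51). Of the 7 measures 0 passed in limma, with 0 at an unadjusted p under 0.05, where 0% of the 27 did, and the median of the 7 was -0.04, against 0.08 over all. Groups without overlap were found in 1 of the 7, beside 8 of the 27. Of the 5 blocks 0 passed, with 1 at an unadjusted p under 0.05, where 0% of the 47 did.

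The stretch was also set against the next 35 kb, which hold the hs4 viewpoint, as partners of the same distant region. The contacts per bin pair of the stretch were divided by those of the next 35 kb for each sample. At 60 to 130 kb the mean ratio from Emu was 0.507 at 0 h, 0.218 at 48 h and 0.120 at 72 h. From IgG1 it was 0.443, 0.318 and 0.285, and from hs4 0.0907, 0.201 and 0.152. The groups of activated and 0 h samples did not overlap from any of the 3 probes. With 2 samples against 3 the exact permutation test (two-sided) reached a p of 0.10, the smallest it allows, and after adjustment over 60 such tests no p was under 0.50.

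**Figure D5:**
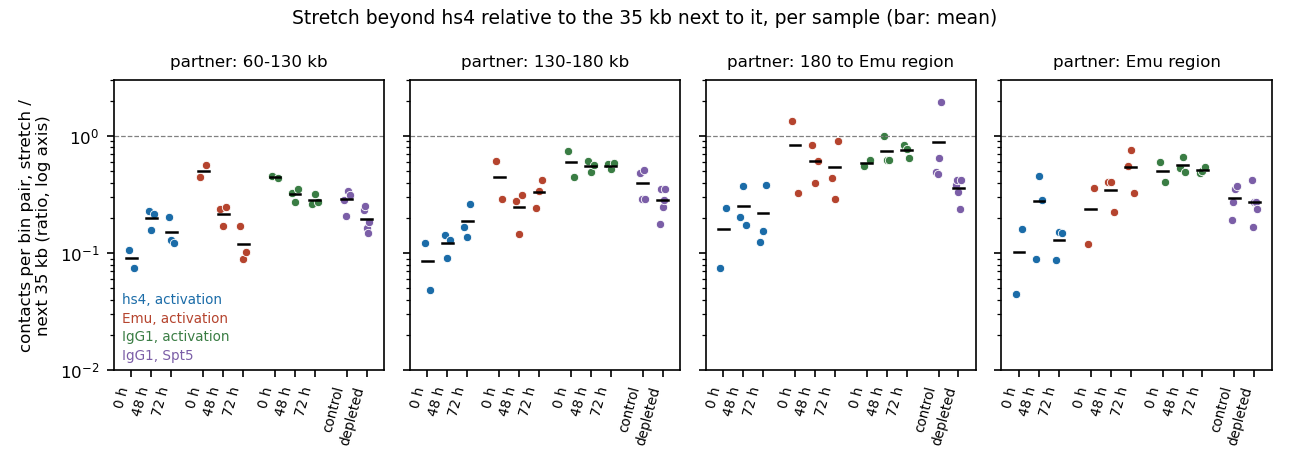
Each point is the ratio, for 1 sample, of contacts per bin pair of the stretch to those of the next 35 kb at a distant region (vertical log axis), by probe and condition. At 60 to 130 kb the Emu samples go from 0.451 to 0.563 at 0 h down to 0.0884 to 0.171 at 72 h.

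At the Emu region the IgG1 ratio was 0.502 at 0 h, 0.560 at 48 h and 0.510 at 72 h, although the contacts of the stretch with that region rose. In the Spt5 set the IgG1 ratio at 180 kb to the Emu region went from a mean of 0.893 in controls to 0.360 in depleted libraries. The controls held 0.492, 0.477, 0.648 and 1.95, so 1 library, clone 2 replicate 2, set much of that mean. The mean log2 difference was -1.04 with it and -0.64 without it, exact permutation tests within clones. With all libraries p was 0.017, the smallest this design allows, and the adjusted p 0.50 (0.21 to 0.86 over the alternatives).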

How the data were processed

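Tri-C maps of 61 libraries were analysed, 1 per library, in 23 groups given by the labels. Per the submitters' processing notes, reads were aligned with Bowtie2 to the mouse build mm9. The version, the contact caller and how duplicates were handled are not stated there. Values were deposited as a signal: each map is an upper triangle of 234 by 234 bins of 1 kb without coordinates, and the authors' values sum to 300000 in every map.

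From these, pairs with an end in bins 1 to 25 were summed in total and by the region of the other end (bins 1 to 25, 26 to 60, 61 to 130, 131 to 180, 181 to 214 and 215 to 234). The region table holds 27 measures (6 region totals and 21 region pairs), 7 of them of the stretch, and the block table holds 47 blocks of 5 kb, 5 of them of the stretch. A contact within 1 block counts both ends. Values were tested as log2(signal + 50) with limma 3.58.1 in R 4.3.3, over measures with a mean of at least 100, in 1 fit per set and probe. P-values were adjusted by Benjamini-Hochberg over the whole table in each of 15 comparisons, with a threshold of 0.05. The fold changes are on this scale, which understates the change of low values. Clones of the IgG1 probe were averaged by replicate number in the activation set, and entered as a term in the Spt5 set, where the numbers matched only in part. Each library of the Spt5 set thus counted as a sample. Probes were compared in 21 exact permutation tests within times, and ratios to the next 35 kb in 60. The ratios too were taken after 50 was added to each sum. Changes were compared between probes in joint limma fits. Whether the probes were used on the same cell samples is not stated, and tests between probes took their samples as separate. Python 3.11.15, numpy 2.4.6, pandas 2.3.3 and matplotlib 3.10.9 were used. The scripts were tested on simulated data.

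Named in the text are the total, the 6 regions, the 5 blocks and, per probe, the 3 bins with the highest mean share. The members and lists were chosen with earlier results of these data known. Alternatives changed the pseudocount, filter, scaling, near-diagonal pairs, pairs near viewpoints, the edge of the stretch, clones and samples. Pairs near a viewpoint were those with an end within 10 kb of it. For the hs4 viewpoint these include pairs of the last bins of the stretch, and for Emu those of most of the Emu region. A fit on recovered whole contacts was not run. Same-numbered samples did not deviate together in every pair, so replicate numbers were not used as a block in the reported fits.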

Additional observations from a re-analysis of the deposited data

Results flagged for a closer look

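In the IgG1 libraries of Spt5-depleted cells, 1 of the 5 values of contacts between the stretch and 130 to 180 kb lay far from the others, at 0.162% of the map against 0.338% to 0.394%. Its gap to the nearest other value was 0.758 of the range of the 5 values. It was 1 of 14 values examined in this way, and chance picks out about 1 in 20 groups.

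The other results listed here are differences between probes in the change of the stretch under the same contrast, tested in joint limma fits over all 27 measures. Between IgG1 and Emu the 48 h change differed by 0.80 log2 units in contacts inside the stretch (adjusted p = 0.021) and by 1.05 in contacts with 60 to 130 kb (adjusted p = 0.042), and the 72 h change in the latter by 1.36 (adjusted p = 0.015). Between hs4 and Emu the changes in contacts with 60 to 130 kb differed by 2.59 at 48 h (adjusted p = 0.0040) and by 2.81 at 72 h (adjusted p = 0.0058). IgG1 minus hs4 gave -1.54 and -1.45 there (adjusted p = 0.022 and 0.027), and -1.19 in contacts with 130 to 180 kb at 72 h (adjusted p = 0.037). Between IgG1 and IgG2a the change on Spt5 depletion differed by -1.76 in contacts with 25 to 60 kb (adjusted p = 0.025). The IgG2a controls held 0.0616% and 0.0148% there, in 1 to 4 filled pairs. The total of the 60 to 130 kb region also differed between hs4 and Emu and between IgG1 and hs4, as given above. The part that sparse filling of these maps has in the differences was not tested.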

How the results depend on the processing

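Alternatives for single values kept direction and side of the threshold in 960 cases, gained a call in 17, lost one in 110 and turned the sign in 28; the cause was not tested for those that moved. Of the called regions, those that held in all alternatives run for them were the rise from IgG1 with the Emu region at both times (1.25 to 2.20 and 1.24 to 2.24) and the Emu fall with 60 to 130 kb at 72 h (-2.60 to -1.26). Of the blocks, these were the last block from IgG1 at 48 h (0.55 to 0.96), at 72 h (0.56 to 1.07) and on Spt5 depletion (-1.11 to -0.72), and that of 15 to 20 kb from hs4 at 48 h (0.61 to 1.43). Between probes, these were hs4 over Emu and IgG1 at 25 to 60 kb and hs4 over IgG1 at 60 to 130 kb. IgG1 over hs4 and Emu at 130 to 180 kb held as well. At 25 to 60 kb and at 130 to 180 kb the higher probe has its viewpoint in the region, which the capture itself enriches. Below, values are log2 differences of the total of the stretch, and counts are of its 7 measures called.

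From hs4 at 48 h the total (0.39) passed without pairs under 5 kb apart (0.66), without pairs near the viewpoint (0.83), with filled pairs counted (0.40), without the largest bin pair (0.38), with a stretch of 22 bins (0.62) and scaled to the next 35 kb (0.71), and leaving out 1 sample gave 0.33 to 0.43. The count of 0 became 1, 3, 4, 1, 2 and 1 in these settings, and 0 to 1 with 1 sample left out. At 72 h the total (0.32) passed without pairs under 5 kb apart (0.44), without those near the viewpoint (0.75), with filled pairs (0.37) and scaled to the next 35 kb (0.55), and with 1 sample left out it was 0.30 to 0.34. The count of 1 became 2 without pairs under 5 kb, 4 with filled pairs and 2 scaled to the next 35 kb, and 0 to 2 with 1 sample left out. For 72 against 48 h the count of 0 became 1 with median-of-ratios scaling.

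From Emu at 48 h the total (-0.28) turned to 0.21 with median-of-ratios scaling, 0.069 without pairs under 5 kb and 0.32 with filled pairs. Its count of 1 became 2 with median-of-ratios scaling, 5 with filled pairs and 2 with 22 bins, and 0 to 1 with 1 sample left out. At 72 h the total (0.08) turned to -0.12 without pairs of a bin with itself and -0.037 scaled to the next 35 kb, and leaving out 1 sample gave -0.069 to 0.24. Its count of 1 became 2 with median-of-ratios scaling, 3 without pairs under 5 kb and 3 with filled pairs. The total of 72 against 48 h (0.37) was -0.092 with filled pairs.

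From IgG1 at 48 h the total (0.36) lost its call with median-of-ratios scaling (0.060), 22 bins (0.28) and clone 2 alone (0.22), turned to -0.15 scaled to the next 35 kb, and was 0.22 to 0.49 with 1 sample left out. Its count of 4 became 2 with 22 bins and 2 scaled to the next 35 kb, and 2 to 5 with 1 sample left out. At 72 h the total (0.43) lost its call with median-of-ratios scaling (0.030) and clone 2 alone (0.24), turned to -0.20 scaled to the next 35 kb, and was 0.29 to 0.56 with 1 sample left out. Its count of 6 became 2, 3 and 2 with median-of-ratios scaling, 22 bins and scaling to the next 35 kb, and 2 to 6 with 1 sample left out. In the same setting contacts inside the stretch were -0.037 and with 25 to 60 kb -0.046. The first block was 0.0061 with filled pairs. The total of 72 against 48 h was -0.029 with median-of-ratios scaling, -0.0100 with filled pairs and -0.049 scaled to the next 35 kb.

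In the Spt5 set from IgG1 the count of 2 became 1 without pairs of a bin with itself and 1 without pairs under 5 kb, and the ratio at the Emu region was -0.46 to 0.20 with 1 sample left out. From IgG2a the total passed at -0.91 with median-of-ratios scaling, and the count of 0 became 3 there, 1 with filled pairs, 1 without the largest pair and 0 to 2 with 1 sample left out. In the TPL set the total with filled pairs passed at -0.65 (1 h) and -0.93 (3 h), with counts of 2 and 2, and without pairs near the viewpoint the 3 h count was 1. The maps after 3 h had more filled pairs than those without TPL, as given above. With 1 sample left out the 1 h total was -0.66 to 0.093 and that of 3 against 1 h -0.48 to 0.27, and the latter was 0.12 without the largest pair. From IgG3 the total (-0.04) was 0.27 without pairs of a bin with itself, 0.33 without pairs under 5 kb, 0.19 with filled pairs and -0.17 to 0.081 with 1 sample left out, and its count was 1 with filled pairs and 0 to 1 with 1 sample left out.

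Between probes, in percentage points, the total from hs4 less that from Emu (0.65) was -0.83 without pairs near the viewpoints, -0.26 without pairs under 5 kb and 0.50 to 0.81 with 1 sample left out. With filled pairs hs4 less IgG1 lost its call at 0.24. Emu less IgG1 (0.33) passed at 1.89 without pairs near the viewpoints (adjusted p = 0.0044) and was -0.0087 with filled pairs.

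Median-of-ratios scaling also changed the balance of higher and lower calls among all 27 measures, from 12 and 7 to 9 and 10 (IgG1, 48 h), 14 and 5 to 8 and 10 (IgG1, 72 h), 1 and 8 to 9 and 7 (Emu, 48 h), 3 and 6 to 4 and 5 (Emu, 72 h), 3 and 1 to 1 and 2 (hs4, 72 h) and 9 and 0 to 5 and 6 (IgG2a).

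With the replicate number as a block, the Spt5 total from IgG1 was -0.56 (adjusted p = 0.11), contacts inside the stretch were -0.69 (adjusted p = 0.11), the block of 10 to 15 kb was -0.53 (adjusted p = 0.058) and the count was 0, and the counts were 1 for hs4 72 against 48 h, 2 and 2 for Emu at 48 and 72 h and 1 for IgG2a. Correlations of same-numbered samples ran from -0.37 to 0.52 over all sets. The samples that correlated best with their own number were 4 of 8 (hs4), 6 of 8 (Emu), 3 of 8 (IgG1), 3 of 9 and 4 of 5 (Spt5, IgG1 and IgG2a), 1 of 9 (TPL) and 2 of 6 (IgG3). Whether the numbers pair samples is not stated, and these values do not settle it in every set.

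Scaling to the next 35 kb, clones apart and the joint fits were chosen after seeing the data. Measures without a call were followed only through counts. Sparse maps limit the TPL and IgG2a sets, and a count test on recovered contacts was not run.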

Other observations

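Bin 13 of the stretch was nearly empty in some sets and not in others. Its median share of contact ends was 0% over 8 Emu and 0.0233% over 8 hs4 libraries of the activation set, 0.0188% over 16 IgG1 libraries, 0% over the 9 libraries of the TPL set and 0.0056% over the 6 IgG3 libraries. In the Spt5 set it was 0.0644% over 9 IgG1 and 0.0965% over 5 IgG2a libraries. The neighbouring bins had medians of 0.0673% to 0.131% in all 7 sets. The bin was chosen after its values were seen, and the sets differ in cells as well as in probes.

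In the TPL set the third and second highest bins were bins 24 and 25, as from Emu in the activation set, while bin 10 had the highest mean share, 0.341% ± 0.49 (SD, n = 9 libraries), with a spread larger than the mean. From IgG2a and IgG3 bin 8 was among the highest 3, at 0.185% ± 0.16 (n = 5) and 0.232% ± 0.24 (n = 6).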
